A study of Mus musculus with 2 samples.

Results

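The 10 genes described here encode enzymes of the hepatic methionine cycle and 4 methyltransferases that use its product, and they were followed in regenerating livers of wild-type (WT) and PPARbeta-null (KO) mice. They are Mat1a, Mat2a, Gnmt, Pemt, Nnmt, Inmt, Ahcy, Bhmt, Cbs and Cth, taken by symbol from a list made with earlier results of these data known, so their differences are a description and carry no test. All 10 were found among the 32320 named genes of the deposited table, each in 1 row, and all 10 were among the 11025 expressed genes, whose FPKM averaged 1 or more over the libraries. FPKM counts fragments per kilobase of exon, scaled to all mapped fragments of the library, so levels of different genes can be set side by side. RNA-sequencing was done on total liver RNA of male C57BL/6 mice 48 hr after partial hepatectomy (PH), which both genotypes underwent, and no unoperated liver is in the series. There was 1 library of WT and 1 of KO liver, both labelled with an age of 4 months, whereas the methods give 3 to 5 months. KO mice carried a null allele of Ppard, the gene of PPARbeta. Ppard was at 2.67 FPKM in WT and at 2.42 FPKM in KO for its whole locus, which does not resolve the disrupted part of the gene. This value therefore checks neither label. How that allele was made, and how many mice gave each library, is not given in the sources used here. The deposited table names a different lane for each library, so that lane and genotype cannot be told apart, and neither can genotype and the individual liver. According to the paper, hepatocyte proliferation peaked later after PH in KO than in WT livers. Genotype and the stage of regeneration at 48 hr can thus not be told apart either.

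Methionine adenosyltransferases turn methionine into S-adenosylmethionine (SAM), the methyl donor of the cell, and the liver holds most of the body's capacity for this step. Methyltransferases pass the methyl group on and leave S-adenosylhomocysteine (SAH), which is hydrolysed to homocysteine. Homocysteine is either methylated back to methionine or led into transsulfuration, the route to cysteine and glutathione. Hepatocytes are known to express Mat1a when differentiated and quiescent and to switch toward Mat2a when they proliferate.

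Of the 10 genes, 4 had more than a 2-fold lower FPKM in KO than in WT, namely Inmt, Cth, Gnmt and Mat2a, and none had more than a 2-fold higher one. Among all expressed genes 8.91% were more than 2-fold lower and 1.75% more than 2-fold higher in KO. Among the 4669 genes with a mean of at least 10 FPKM these shares were 5.23% and 1.99%, and 72.8% were lower in KO by any amount. Among the 693 genes with a mean of at least 100 FPKM, the range that held 8 of the 10 members, they were 6.64% and 5.19%, and 62.6% were lower by any amount. Since the members were listed with their values known, nothing is read from the distance between these shares. Ahcy, Bhmt and Pemt were lower in KO by less than 2-fold, and Mat1a, Cbs and Nnmt were higher. Their log2 KO/WT had a median of -0.51, against -0.24 over the expressed genes, of which 75.7% were lower in KO by any amount. Most genes were thus slightly lower in the KO library, and a member with a KO/WT ratio of about 0.848, that of the median gene, sat in the middle of the table. Equal upper quartiles would raise every KO value 1.21-fold and centring on the median of expressed genes 1.18-fold. Under both of these scalings Mat2a was no longer past 2-fold, which left 3 members past it.

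**Figure D1:**
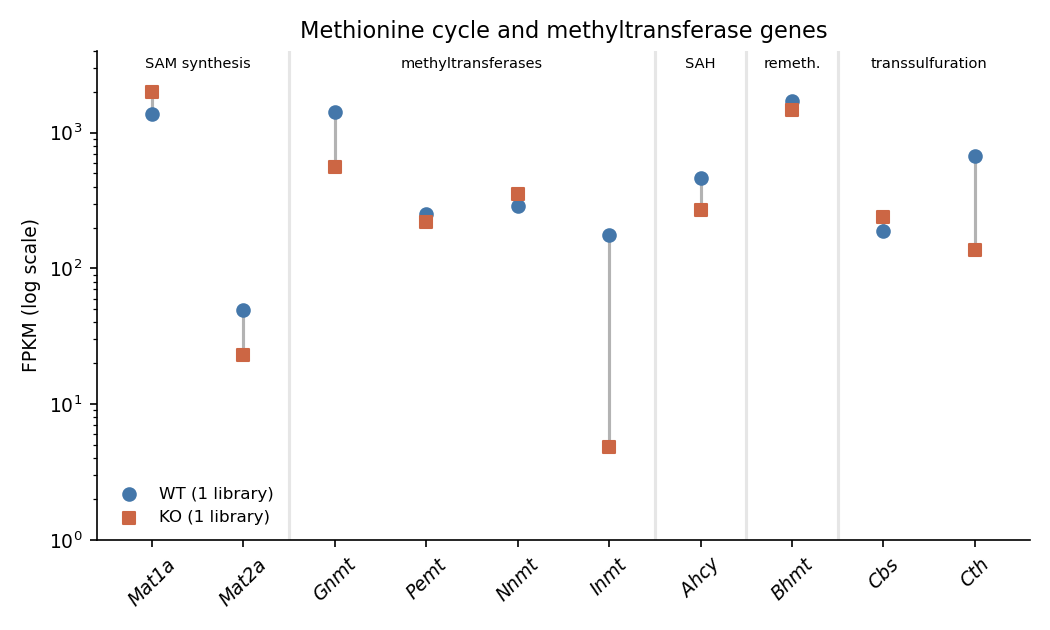
FPKM of the 10 genes on a log axis, with a circle for the WT library and a square for the KO library, grouped by the step each enzyme catalyses. Inmt and Cth show the longest gaps between the libraries, while the symbols of Pemt and Bhmt nearly touch.

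**Figure D2:**
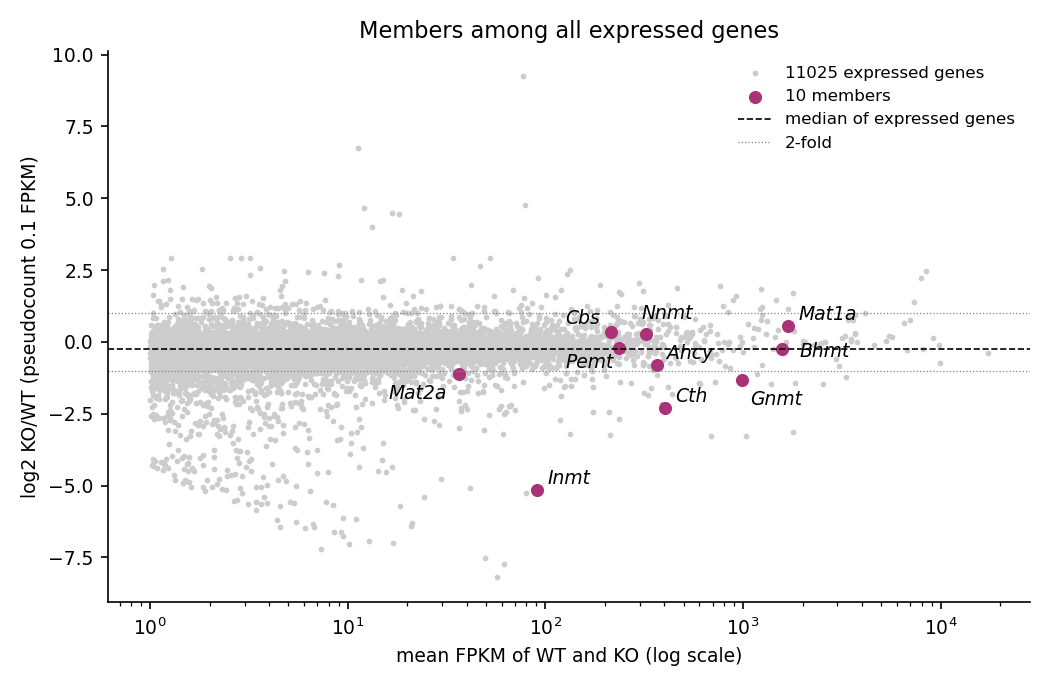
Log2 KO/WT of FPKM (vertical, pseudocount of 0.1 FPKM) against the mean FPKM of the WT and KO libraries (horizontal, log axis) for 11025 expressed genes in grey and the 10 members in colour. The dashed line is the median of the expressed genes at -0.24 and the dotted lines are 2-fold differences. Bhmt and Pemt lie on the median, Mat1a, Cbs and Nnmt above it, and Inmt far below.

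Most of the 10 genes belonged to the abundant part of the liver transcriptome. In the WT library Bhmt, Gnmt and Mat1a, with FPKM values of 1708, 1410 and 1374, ranked 44, 50 and 51 among all named genes. Cth followed with 667, then Ahcy with 465, Nnmt with 290, Pemt with 252, Cbs with 189 and Inmt with 176, and Mat2a came last with 49.8. In the KO library the order was Mat1a, Bhmt, Gnmt, Nnmt, Ahcy, Cbs, Pemt, Cth, Mat2a and Inmt. Mat1a thus moved from the third place to the first, Cth from the fourth to the eighth and Inmt from the ninth to the last. Neighbours in either order could not be set against a spread between mice. The summed FPKM of the 10 genes was 6581 in WT and 5264 in KO, a KO/WT ratio of 0.80. In bulk RNA, fewer cells of a type and less RNA per cell cannot be told apart.

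The genes of the SAM-forming enzymes differed in opposite directions between the libraries. Mat1a, which encodes the methionine adenosyltransferase of adult hepatocytes (chromosome 14, plus strand, 41918670 to 41937701 on NCBIM37), was at 1374 FPKM in WT and at 2005 FPKM in KO. The KO/WT ratio was 1.46, and 4.44% of expressed genes had a value at least as high. Among genes with a mean of at least 100 FPKM, 5.19% were more than 2-fold higher in KO. The share at 1.46 or above was thus larger in that range, to which Mat1a belongs. Mat2a, the catalytic subunit used by most other tissues and by dividing hepatocytes (chromosome 6, minus strand, 72382793 to 72389552), had 49.8 in WT and 23.2 in KO. Its level in WT was 2.15-fold that in KO, with a 95% interval of 2.08 to 2.23 from counting error. Such intervals were computed from the number of fragments estimated behind each value, about 9172 in WT and 4396 in KO for Mat2a, and they hold nothing of the difference between mice. The row of the neighbouring gene Ggcx, which the table places in the same locus, was 21.1 in WT and 23.8 in KO. The ratio of Mat1a to Mat2a within a library does not depend on how the libraries were scaled. It was 27.6 in WT and 86.6 in KO, which is 3.14 times as high. Mat1a made up most of the SAM-forming FPKM in both libraries, and the sum of the pair was 1424 in WT and 2028 in KO. Mat2b, the regulatory subunit that pairs with Mat2a, had 14.4 in WT and 10.5 in KO.

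Among the 4 methyltransferases the differences ran from a slightly higher value to a nearly complete loss. Inmt, which methylates indoleamines such as tryptamine (chromosome 6, minus strand, 55120620 to 55125037), reached 176 FPKM in WT liver. In KO liver it reached 4.83, resting on about 294 fragments against 10355 in WT. Its WT/KO ratio was 36.4, with a counting interval of 32.4 to 40.9. Only 0.363% of expressed genes had a log2 KO/WT as low or lower, and no other member came near this value.

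Gnmt, which methylates glycine and is known as the enzyme that takes up surplus SAM in the liver (chromosome 17, minus strand, 46862613 to 46866117), had 1410 in WT and 558 in KO. The WT/KO ratio was 2.53, with a counting interval of 2.50 to 2.56. The table lists Gnmt in a joined locus of 416 kb that also holds 19 other rows, whereas the gene itself spans 3.5 kb. None of these other rows exceeded an FPKM of 28.3 in WT or 31.6 in KO, so the level of Gnmt was not that of a neighbour. Gnmt lies 18.4 Mb and Cbs 3.31 Mb beyond the end of Ppard on the same chromosome.

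Nnmt, which methylates nicotinamide (chromosome 9, minus strand, 48399982 to 48413258), was at 290 FPKM in WT and at 355 FPKM in KO, a KO/WT ratio of 1.22. Pemt, which makes phosphatidylcholine from phosphatidylethanolamine (chromosome 11, minus strand, 59784116 to 59859991), had 252 in WT and 220 in KO. Its KO/WT ratio of 0.873 became 1.03 once ratios were centred on the median gene, so its direction rests on the scaling.

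Gnmt made up 66.2% of the summed FPKM of the 4 methyltransferases in WT and 49.0% in KO, and the sum was 2128 in WT and 1138 in KO. The share of Nnmt was 13.6% in WT and 31.2% in KO, and that of Pemt 11.9% and 19.4%. Inmt made up 8.26% in WT and 0.425% in KO. Within a library, Nnmt stood 1.65-fold above Inmt in WT and 73.4-fold above it in KO. Nnmt, Pemt and Inmt thus lay within 2-fold of each other in WT, and Inmt stood far below the others in KO.

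The stretches of 250 bases before the start of Inmt, Mat2a and Gnmt are shown because these genes were past 2-fold and had a promoter in the RefSeq table used here, on build GRCm38.p6 and read on the minus strand, the strand of each gene. RefSeq promoters were found for 7 of the 10 members, not for Mat1a, Cth and Nnmt. Capitals mark matches to the motifs named after the sequences. They are Inmt at chr6:55174991-55175240, Mat2a at chr6:72439557-72439806 and Gnmt at chr17:46729166-46729415.
Inmt: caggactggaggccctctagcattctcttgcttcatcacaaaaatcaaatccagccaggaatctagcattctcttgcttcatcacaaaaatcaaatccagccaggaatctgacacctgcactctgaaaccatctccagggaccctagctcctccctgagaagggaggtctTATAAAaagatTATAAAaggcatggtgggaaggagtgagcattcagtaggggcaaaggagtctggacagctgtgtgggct
Mat2a: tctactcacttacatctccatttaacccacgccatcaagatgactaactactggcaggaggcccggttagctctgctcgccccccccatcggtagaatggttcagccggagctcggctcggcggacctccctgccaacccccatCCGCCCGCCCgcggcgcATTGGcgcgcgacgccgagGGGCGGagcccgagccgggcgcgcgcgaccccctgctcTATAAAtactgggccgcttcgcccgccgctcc
Gnmt: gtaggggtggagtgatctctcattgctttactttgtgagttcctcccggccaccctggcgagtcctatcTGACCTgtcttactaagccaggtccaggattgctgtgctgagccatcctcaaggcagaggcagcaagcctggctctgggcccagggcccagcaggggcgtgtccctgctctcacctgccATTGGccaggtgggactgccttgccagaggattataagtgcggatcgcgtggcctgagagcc

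The promoters of Inmt and Mat2a differ in base composition. The RefSeq window of Inmt, 300 bases from 250 before to 50 after the start, holds 0 CpG dinucleotides, and that of Mat2a holds 34. The ratio of observed to expected CpG was 1.05 for Mat2a, higher than or equal to 96.5% of the 32851 promoter windows of the table. For Gnmt it was 0.383, next to the median of all windows, 0.384. The letters TATAAA, searched on the printed strand only, occur at positions -80 and -69 of Inmt and at -32 of Mat2a, and 8.32% of all windows hold them. The other motifs were searched on both strands. GGGCGG, the GC box, occurs 3 times before Mat2a, where the first pair overlaps, and also before Ahcy and Cbs, and 35.7% of all windows hold it. CCAAT was found in 6 of the 8 windows of the members, Mat2a and Gnmt included, and in 37.4% of all windows. AGGTCA, the half-site bound by many nuclear receptors, was found in 3 of these 8, those of Gnmt, Ahcy and Bhmt, and in 16.3% of all windows. DR1, the direct repeat of this half-site with 1 base N between its copies and a pattern that PPAR-RXR dimers are known to bind, occurred in 13 of all windows (0.0396%) and in none of the 8 windows of the members. CACGTG was found before Cbs and in 7.15% of windows, while TGATGNAA (3.97%) and TTTCCCGC (1.07%) were in no member window. Such matches describe letters in a window and do not show binding. Exact patterns as rare as DR1, TGATGNAA and TTTCCCGC would be missing from most sets of 8 windows, so nothing is read from their absence.

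The genes for SAH hydrolysis and for the betaine-dependent return of homocysteine to methionine both had a lower FPKM in KO, by less than 2-fold. Ahcy, the only enzyme known to hydrolyse SAH (chromosome 2, minus strand, 154885046 to 154900233), was at 465 FPKM in WT and at 268 FPKM in KO, a KO/WT ratio of 0.576. Bhmt, which methylates homocysteine with betaine (chromosome 13, minus strand, 94386846 to 94407916), had 1708 in WT and 1454 in KO. Its KO/WT ratio of 0.851 matched that of the median expressed gene and became 1.004 when centred on it, so that its direction, too, rests on the scaling. A noncoding gene that overlaps Bhmt on the other strand, Gm15622, had 1.32 in WT and 0.612 in KO, and without strand information fragments of an overlapping pair cannot be told apart. Bhmt2, the neighbouring paralog that prefers another methyl donor, had 90.5 in WT and 91.3 in KO.

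Ahcy and Bhmt have near-identical copies elsewhere in the genome that had rows of their own in the table. When the member transcripts were aligned to NCBIM37, Ahcy and Bhmt each had 2 intronless copies at least 95% identical, and the other 8 genes had none. The copy of Ahcy on chromosome 16, Gm4737, was 99.7% identical over 81.9% of the transcript, and that on chromosome 1, Gm9826, was 98.7% identical. Of the 1984 windows of 100 bases, the length of 1 read, that could be compared with Gm4737, 83.0% held no difference from Ahcy. For Gm9826 this share was 44.3%. A read from such a window cannot be assigned to 1 of these places by its letters. Whether the values of the copies came from their own transcripts or from reads of Ahcy was not tested. The coding stretch of 100 bases with the most differences is shown because a read from it can be told apart, if by few bases, at chr2:154887980-154888079 (minus strand) for Ahcy, chr16:46154054-46154153 (minus strand) for Gm4737 and chr1:7168792-7168891 (plus strand) for Gm9826. Capitals mark the bases that differ from Ahcy, 2 in Gm4737 and 3 in Gm9826.
Ahcy: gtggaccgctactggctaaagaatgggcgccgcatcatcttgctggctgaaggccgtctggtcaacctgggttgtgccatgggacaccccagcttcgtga
Gm4737: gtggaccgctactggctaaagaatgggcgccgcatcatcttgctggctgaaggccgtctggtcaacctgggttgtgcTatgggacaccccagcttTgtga
Gm9826: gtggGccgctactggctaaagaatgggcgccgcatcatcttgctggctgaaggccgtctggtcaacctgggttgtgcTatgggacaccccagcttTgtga

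The copies had high values of their own, with KO/WT ratios close to those of the parent genes. Gm4737 was at 356 FPKM in WT and at 203 FPKM in KO (ratio 0.569), and Gm9826 had 126 and 70.3 (ratio 0.557). Added to Ahcy they gave 948 in WT and 541 in KO, of which the row of Ahcy held 49.1% in WT and 49.6% in KO. The ratio of the sum was 0.571. By this sum Ahcy would stand above Cth in the WT library, so the place of Ahcy in the order of levels depends on whether the copies are added, whereas its KO/WT ratio hardly does. Where the copies hold reads of Ahcy, their ratios would follow its own, so the like ratios are no independent check. The more distant copies on the X chromosome, Gm5638 (91.1% identical) and Gm4913 (88.3%), had 0.0303 and 0 in WT. For Bhmt, Gm5096 on chromosome 18 (99.4% identical) had 639 in WT and 563 in KO, and Bhmt-ps1 on chromosome 4 (98.7%) had 175 and 149. Their KO/WT ratios were 0.880 and 0.854. The sum over Bhmt and its copies was 2522 in WT and 2166 in KO, with a ratio of 0.859, and the row of Bhmt held 67.7% of it in WT. Mat2a had a more distant copy on chromosome 5, 94.7% identical, where 4.81% of 100-base windows held no difference.

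**Figure D3:**
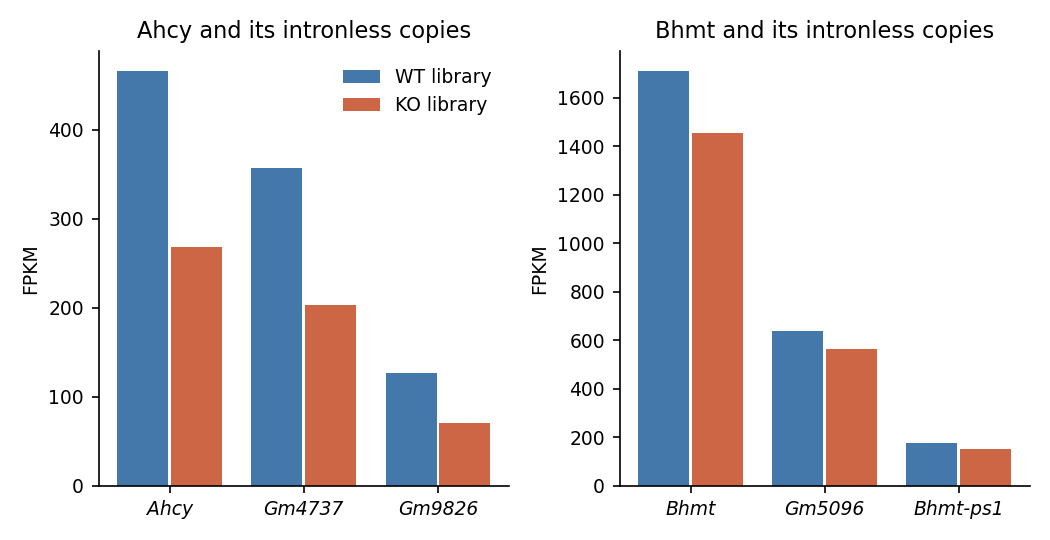
FPKM (linear axis from 0) of Ahcy and Bhmt and of their intronless copies, with a bar each for the WT and the KO library. In both families the KO bar is lower at every place, and the copies together hold about as much as the row of Ahcy, and less than that of Bhmt.

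In transsulfuration the genes of the first and the second step differed in opposite directions. Cbs, which joins homocysteine and serine to cystathionine (chromosome 17, minus strand, 31749568 to 31774144), was at 189 FPKM in WT and at 240 FPKM in KO, a KO/WT ratio of 1.27 that 7.21% of expressed genes reached. Cth, which cleaves cystathionine to cysteine (chromosome 3, minus strand, 157557212 to 157588041), had 667 in WT and 136 in KO. Its WT/KO ratio was 4.91, with a counting interval of 4.82 to 5.00, and 2.29% of expressed genes had a log2 KO/WT as low or lower. The ratio of Cbs to Cth within a library was 0.284 in WT and 1.77 in KO, 6.24 times as high. Cth exceeded Cbs in WT, and Cbs exceeded Cth in KO. The same kind of ratio for Bhmt and Gnmt, which respectively feed and drain the methionine pool, was 1.21 in WT and 2.61 in KO. The ratio of Ahcy to Mat1a went the other way, with 0.339 in WT and 0.134 in KO. These pairs were picked after their values were seen.

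**Figure D4:**
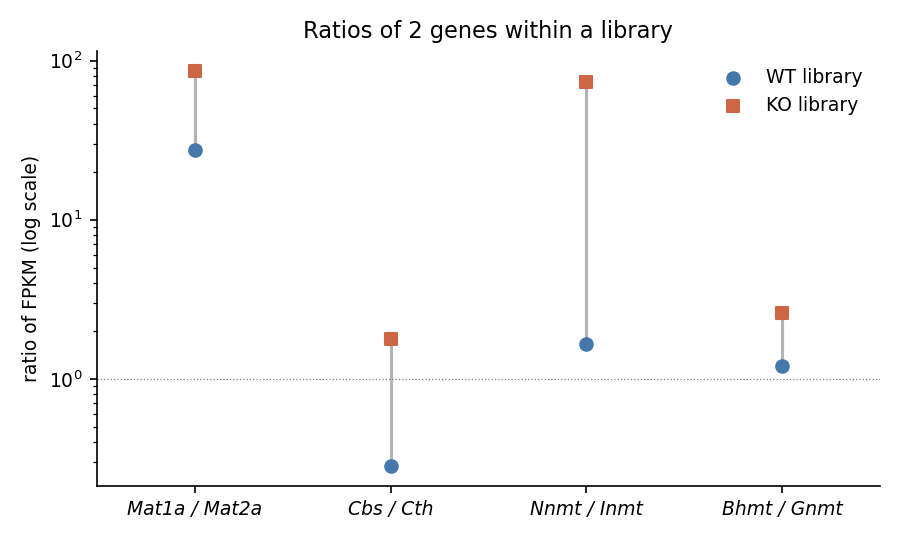
Ratio of the FPKM of 2 genes within the same library, on a log axis, with a circle for WT and a square for KO and a dotted line at 1. The pairs and the order within each were picked after their values were seen, and all 4 are higher in KO by that choice. The ratio of Cbs to Cth crosses the line.

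Genes of neighbouring pathways were described from 7 lists. Their counts stand beside 8.91% of all expressed genes more than 2-fold lower and 1.75% more than 2-fold higher in KO. The lists, too, were chosen with earlier results known, so nothing is read from the distance between these shares. In the list of other small-molecule methyltransferases, 3 of 11 expressed genes were more than 2-fold lower in KO and none more than 2-fold higher. Hnmt, which inactivates histamine by methylation, was at 21.5 FPKM in WT and at 4.82 FPKM in KO, which was 4.47-fold lower. Gamt, which makes creatine and is known as a large consumer of SAM, had 73.7 in WT and 33.0 in KO. Gatm makes the substrate of Gamt and is no methyltransferase itself, and it had 5.20 and 2.55. The FPKM of both genes of creatine synthesis was thus lower in KO, 2.23-fold for Gamt and 2.04-fold for Gatm. With equal upper quartiles or centring neither was past 2-fold, which left 1 of the 11 genes, Hnmt. Mettl7b had 355 in WT and 400 in KO, and Mettl7a1, in a row shared with Gm10035, had 111 and 67.4. Pnmt was listed at 0 in both libraries, and Asmt was not analysed here. The median log2 KO/WT of this list was -0.11 and turned to 0.12 after centring on the expressed genes.

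None of the 5 genes of SAM synthesis and SAH handling beside the members was past 2-fold. Adk, the kinase that removes the adenosine released by Ahcy, had 347 in WT and 357 in KO, and the Ahcy-like gene Ahcyl1 had 47.8 and 36.8. In the list of homocysteine remethylation and betaine supply, none of the 9 genes was more than 2-fold lower in KO. Aldh7a1, which can oxidise betaine aldehyde to betaine, had 219 in WT and 158 in KO. Dmgdh and Sardh demethylate, in turn, the product that Bhmt leaves. Dmgdh had 149 in WT and 131 in KO, and Sardh had 168 and 106. The 3 KO/WT ratios lay between 0.629 and 0.881.

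Phosphatidylcholine can be made by Pemt or from choline through the CDP pathway. In the CDP list 1 of 8 expressed genes was more than 2-fold higher in KO, beside 1.75% of all expressed genes, and none more than 2-fold lower. The list median was 0.04. The gene past 2-fold was Chka, a choline kinase, with 29.1 in WT and 68.1 in KO, a KO/WT ratio of 2.34. Pcyt1a, which activates phosphocholine in the choline branch, had 24.2 in WT and 15.3 in KO, and Chpt1, which completes that branch, had 81.1 and 96.3. The list also holds genes of the parallel ethanolamine branch, which makes phosphatidylethanolamine. Of these, Etnk2 had 187 in WT and 216 in KO, and Pcyt2, in a row shared with Mafg and Sirt7, had 196 and 162.

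Below cysteine, 1 of 11 genes was more than 2-fold lower in KO, close to the 8.91% of all expressed genes. Ethe1, a mitochondrial enzyme of sulfide oxidation, had 60.6 in WT and 20.6 in KO, which was 2.93-fold lower. Cdo1, which oxidises cysteine toward taurine and sulfate, was higher in KO, with 419 in WT and 725 in KO and a ratio of 1.73. With equal upper quartiles or centring Cdo1 was more than 2-fold higher. Gclc, the catalytic subunit of the first enzyme of glutathione synthesis, had 92.9 in WT and 55.1 in KO, and Tst had 118 and 134. The FPKM of Cth, whose enzyme forms cysteine, and that of Cdo1, whose enzyme removes it as sulfinate, thus differed in opposite directions between the libraries.

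All 10 genes of polyamine synthesis and methionine salvage, the pathway that uses SAM without methyl transfer, were lower in KO, although Mri1 turned to the other side with equal upper quartiles or centring, and none was past 2-fold. Their median log2 KO/WT was -0.55, against -0.24 over the expressed genes, of which 75.7% were lower in KO by any amount. This list median was -0.28 with equal upper quartiles and -0.32 with centring. Odc1, the first enzyme of polyamine synthesis, had 56.6 in WT and 38.9 in KO. Adi1 of the salvage pathway had 72.8 and 49.5, and Mri1, in a row shared with D8Ertd738e, had 66.2 and 61.4. On the side of nicotinamide, the substrate of Nnmt, 1 of 8 genes was more than 2-fold lower in KO, beside 8.91% of all expressed genes. Nampt, which returns nicotinamide to NAD, had 12 in WT and 5.73 in KO, which was 2.10-fold lower. With equal upper quartiles or centring it was not past 2-fold, which left none of the 8. Qprt had 82.8 and 51.5, Aox3, which oxidises methylated nicotinamide, had 63.3 and 67.7, and Naprt1 had 47.0 and 45.3. The median of this list was -0.18 and turned to 0.06 after centring.

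**Figure D5:**
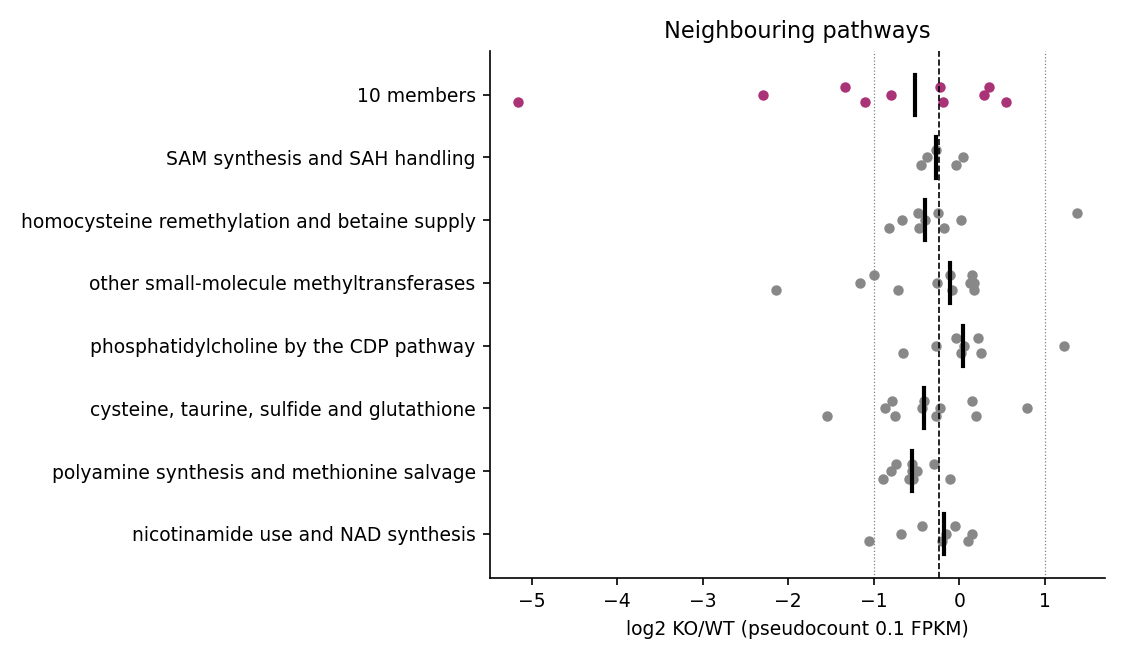
Log2 KO/WT of FPKM (pseudocount of 0.1 FPKM) of each gene with a mean FPKM of at least 0.1 in the 7 lists of neighbouring pathways in grey and of the 10 members in colour. Thick black bars are list medians, the dashed line is the median of expressed genes at -0.24 and dotted lines are 2-fold differences. The members spread wider than any of the lists, from -5.16 to 0.55, and the polyamine and salvage list, from -0.90 to -0.11, lies below 0 with all of its genes, of which Mri1 is the closest to 0 and crosses it with equal upper quartiles or centring.

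Both libraries had the markers of liver. Of 8 hepatocyte markers 7 were measured, and their FPKM summed to 15411 in WT against 13150 in KO. Alb was left out as a failed estimate. Of these 7 genes 5 were lower in KO. Among all expressed genes 75.7% were lower by any amount, a share that also belongs beside the counts of other cell types below. The urea cycle gene Ass1, with 2672 FPKM in WT and 983 in KO, and Cps1, with 1597 and 743, were more than 2-fold lower, and Tat had 1115 and 595. With equal upper quartiles or centring Cps1 was not past 2-fold. Serpina1a, the most abundant, was higher in KO with 3337 and 4039. Hepatocyte genes outside the methionine cycle thus differed in both directions, as the 10 genes did. Markers of macrophages (summed FPKM 51.2 in WT and 29.9 in KO, 5 of 6 measured genes lower in KO), endothelial cells (48.5 and 34.6, 6 of 6 lower) and stellate cells (91.4 and 59.9, 6 of 6 lower) were low and lower in KO. In the endothelial and the stellate list the gene nearest to 0 had a log2 KO/WT of -0.21 and -0.14, above the median of expressed genes, so it would turn with centring. The lists were led by Clec4f, Clec4g and Dcn. Cholangiocyte markers, led by Spp1, summed to 29.8 in WT and 25.7 in KO, with 3 of 3 expressed genes lower. Of these, Sox9 and Spp1 would turn with centring, whereas Krt19 had 1.72 in WT and 0.559 in KO. Erythroid markers, led by Hba-a1, summed to 295 in WT and 252 in KO, with 2 of 3 expressed genes lower. Alas2 was higher, with 20.6 in WT and 37.5 in KO. Neutrophil markers, led by S100a8, summed to 12.9 and 6.91, with Ly6g and Mpo at 0, and the 6 lymphocyte markers, led by Cd4, to 0.679 and 0.357. The part of other cell types in the differences above was not tested.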

How the data were processed

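Liver RNA of 1 WT and 1 KO mouse library was sequenced with reads of 100 bases, given as single end in the methods and as paired end in the labels. The authors aligned reads to NCBI37 (mm9) with TopHat2 2.0.0, assembled transcripts with Cufflinks 1.3.0 and estimated FPKM per locus with Cuffdiff, and these FPKM values were used as deposited. The annotation used and any quartile normalization are not given in the sources used here. The columns with the authors' own comparison (fold change, statistic, p-value, q-value) were not used. NCBIM37 with GENCODE vM1, the build of the table, gave coordinates and transcript lengths.

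Of 38016 loci, 21 marked HIDATA were left out, rows of a symbol were summed, and a row naming several symbols counted once among all genes. Fold differences are ratios of FPKM, and log2 ratios were taken after adding 0.1 FPKM to both values, so differences of low genes come out too small. Expressed genes had a mean FPKM of at least 1, and list medians used genes of at least 0.1. Counts of reads were not used. Depth was read from 1243 single-exon genes of at least 1000 nt. Their low values, 166 in WT and 165 in KO, piled up most at a spacing of 0.0183 FPKM in WT and 0.0177 in KO for 1 kb. That is about 54.7 and 56.4 fragments per FPKM and kb. The piling up was weak, with a mean cosine of 0.204 in WT and 0.261 in KO, where exact spacing gives 1. Fragment numbers and intervals are therefore rough. Fragments behind a value were estimated from this depth and the longest annotated transcript, and exact (Clopper-Pearson) 95% intervals of ratios from these fragments cover counting error only. No test between genotypes was possible with 1 library each.

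Transcripts were aligned to NCBIM37 with minimap2 2.31, and copies at least 95% identical over at least 50% of a transcript were counted. Scripts ran on Python 3.11.15 with pandas 2.3.3, scipy 1.17.1, numpy 2.4.6 and matplotlib 3.10.9. Only the ratio, median, 2-fold call and depth steps were tested on simulated data. The simulation drew counts for all named genes, so it does not show how well depth was read from the few low values here. The members and lists were chosen with earlier results of these data known. Named were all members, of each pathway list the 3 genes with the highest mean FPKM and every expressed gene past 2-fold, of each marker list the highest, and Ppard. Of the genes this rule names, 2 are not reported here. Other genes were chosen after their values were seen. They are Ggcx, Gm15622 and Bhmt2 as neighbours or paralogs, and the copies of Ahcy, Bhmt and Mat2a. The rest are Pcyt1a, Ass1, Cps1, Tat, Krt19, Sox9, Alas2 and markers at 0. Alternatives covered scaling, pseudocount, filters, the fold and the handling of rows.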

Additional observations from a re-analysis of the deposited data

How the results depend on the processing

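With 1 library of each genotype, none could be left out. No paired analysis was possible because the groups compared share fewer than 2 replicate numbers. With a fold threshold of 3 in place of 2, 2 members (Inmt and Cth) were lower in KO, and with 1.5 there were 5. The count of members more than 2-fold higher in KO was 0 under all 5 alternatives tried, of which the fold of 3 could not have raised it. The members' median log2 KO/WT stayed below 0 under 3 scalings, and was nearest to 0, at -0.24, with equal upper quartiles. It also stayed below 0 with 2 other pseudocounts, which cannot turn the direction of a gene's ratio. Equal upper quartiles also moved the median of the polyamine and salvage list to -0.28. Of 30 member ratios under 3 scalings, 4 changed direction, those of Pemt and Bhmt with equal upper quartiles and with centring. None of 30 changed with the handling of rows. That was settled beforehand, since each of the 10 members had 1 row with status OK and no other symbol in it. Adding the copies of Ahcy and Bhmt, an alternative chosen after seeing the data, gave 0.571 and 0.859. Where a copy holds reads of its parent gene, adding it could hardly have moved the ratio. The share of genes more than 2-fold lower in KO was 5.23% at a mean FPKM of at least 10, 6.64% at 100 (chosen after seeing the data), 13.7% at 0.1 and 6.32% after centring. The share more than 2-fold higher was 2.80% at 0.1, 5.19% at 100 and 2.74% after centring.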
